A study of Homo sapiens with 4 samples.

Results

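Of the 58302 genes listed in the count table, 9 were examined: the HES and HEY repressors HES1, HES2, HES4, HES6, HES7, HEY1, HEY2 and HEYL, together with NRARP. They were taken by name, as the members of the HES and HEY families and the feedback gene NRARP that are read as Notch targets. Earlier results of these data were known when these genes were chosen. All of them were found by Ensembl identifier, and 7 passed the filter on low counts and were tested. HES2 and HEY2 had too few reads and were not tested.

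RNA-seq was performed on NCI-H838, a line of human non-small-cell lung cancer. The cells, called MIB1-iKO, carry a single construct with a MIB1 guide RNA and a Cas9 gene switched on by doxycycline (dox), and this construct is present in every sample. The 2 no dox samples received no dox. The 2 dox samples received 0.5 μg/mL dox, and all 4 were taken at day 3. The line was derived from isolated single-cell clones, and the labels do not say which clone or guide was used. No dox-treated cells without a MIB1 guide were among the samples, so an effect of dox or Cas9 and an effect of MIB1 loss cannot be told apart. The study calls the 2 samples of a group biological replicates, but nothing says that they were separate cultures, so the p-values measure the spread between these samples, which may be technical.

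MIB1 is an E3 ubiquitin ligase that ubiquitinates Notch ligands on the signal-sending cell, a step needed for the ligand to activate the receptor on the neighbouring cell. The activated receptor is cleaved by γ-secretase, and its intracellular domain joins the DNA-binding protein RBPJ and Mastermind-like coactivators to switch on target genes. HES and HEY proteins, which are basic helix-loop-helix transcriptional repressors, are the best known of these targets, and NRARP is a target whose protein restrains Notch signaling. HEY1 is also a known target of BMP signaling through SMAD proteins, so it was read against other BMP-responsive genes too.

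The upstream sequences of HES1 and HES4 are shown because their RBPJ motifs have an arrangement shared by few promoters. RefSeq promoters of GRCh38.p14 were searched on both strands over the 250 bases before the gene start for TGGGAA, the core of the usual RBPJ motif, and for GTGTGAA, a variant core. Capitals mark matches in the sequences below, and a match read on the reverse strand appears as its complement. The motifs and their spacing were chosen after the sequences had been seen. The 30 bases of HES1 at chr3:194136063-194136092 (plus strand), 85 to 56 bases before the start, and of HES4 at chr1:1000145-1000174 (minus strand), 77 to 48 bases before the RefSeq start, read as follows.
HES1: gTGGGAAagaaagttTGGGAAgtTTCACAC
HES4: gTGGGAAagaatgcggagccgggTTCACAC
In both, a TGGGAA on the coding strand faced a GTGTGAA on the reverse strand within 30 bases, and HES1 held a further TGGGAA between them. Facing cores this close were found in 7 of 27305 promoters (0.0256%), and HES1 and HES4 were 2 of these 7. TGGGAA alone was common, with a match in 21.1% of promoters, while GTGTGAA had one in 2.53%.

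Of the 9 genes, 8 had a promoter in the RefSeq table, HEY1 being the one without. TGGGAA was found in 4 of the 8 (HES1, HES4, HEY2 and HEYL) and GTGTGAA in HES1 and HES4. The whole windows of HES1 (chr3:194135898-194136147, plus strand), HEYL (chr1:39639644-39639893, minus strand) and NRARP (chr9:137302272-137302521, minus strand) are given to set 3 kinds of promoter side by side: paired cores close to the start, separate cores, and no core.
HES1: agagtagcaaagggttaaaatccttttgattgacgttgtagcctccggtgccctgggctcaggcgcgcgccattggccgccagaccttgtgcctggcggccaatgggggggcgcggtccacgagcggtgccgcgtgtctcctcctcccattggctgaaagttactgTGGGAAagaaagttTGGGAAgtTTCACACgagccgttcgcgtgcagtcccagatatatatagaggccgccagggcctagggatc
HEYL: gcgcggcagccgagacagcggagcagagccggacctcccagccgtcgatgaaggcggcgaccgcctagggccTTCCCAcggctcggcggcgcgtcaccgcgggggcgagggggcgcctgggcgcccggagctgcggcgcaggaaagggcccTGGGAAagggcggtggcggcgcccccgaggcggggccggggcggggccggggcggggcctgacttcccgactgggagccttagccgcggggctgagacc
NRARP: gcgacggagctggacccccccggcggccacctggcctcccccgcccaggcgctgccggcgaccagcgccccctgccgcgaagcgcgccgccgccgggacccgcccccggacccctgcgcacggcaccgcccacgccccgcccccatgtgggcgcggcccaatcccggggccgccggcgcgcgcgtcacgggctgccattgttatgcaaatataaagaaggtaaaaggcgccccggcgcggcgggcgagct
In HES1 the cores lay 84 to 79, 70 to 65 and 62 to 56 bases before the start. In HEYL they lay 178 to 173 bases (reverse strand) and 99 to 94 bases before it. HES1 had the lowest GC content of the 8 windows, 59.2%, close to the median of all promoters, 58.0%, whereas HEYL had the highest, 79.6%, and NRARP stood at 78.4%. The N-box CACNAG, a motif that HES proteins bind, was found in HES1 and HES7 and in 32.0% of all promoters. GGCGCC, a GC-rich letter run that SMAD proteins can bind, was found in HES2, HEY2, HEYL and NRARP and in 16.1% of all promoters. CCAAT was found in HES1, HES4, HES6, HEY2 and NRARP, against 33.0% of all promoters. None of these matches says that a protein was bound there.

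Between 15943025 and 24398411 reads were counted per library, and the totals of both dox libraries were below those of both no dox libraries. MIB1, the targeted gene, was read 598, 588, 90 and 59 times in no dox replicates 1 and 2 and dox replicates 1 and 2. The log2 fold change (dox minus no dox) of MIB1 was -2.58 ± 0.23 (SE; adjusted p = 0.000375 in limma), in the direction of the labels. Of 8 epithelial markers, EPCAM, KRT8, KRT18 and CDH1 had at least 10 reads in every library, while KRT19 and the lung markers NKX2-1 and SFTPB were listed at 0. The summed RPKM of the epithelial list was 83.1 to 91.6 without dox and 67.3 to 72.4 with dox. KRT8 and KRT18 were lower with dox, at 0.772 and 0.734 of their mean RPKM without it, whereas EPCAM and CDH1 stood at 1.09 and 1.18. The summed RPKM of the fibroblast list was 2.37 to 2.60 and 2.02 to 2.54, that of the leukocyte list 0.490 to 0.847 and 0.704 to 0.879 (PTPRC and CD68 at 0), and that of the endothelial list 0.0845 to 0.121 and 0.0536 to 0.0977. The part of the lower epithelial sum and of the lower totals in the results below was not tested. In bulk RNA, fewer cells of a type and less RNA per cell cannot be told apart.

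HES4 was the most abundant of the 9 genes and HES1 came next, in every library. Levels are given in RPKM, reads scaled by gene model length and by depth, which can be compared between genes. HES4 took between 65.4% and 72.9% of the RPKM summed over the 9 genes, and HES1 between 7.88% and 12.5%. Without dox the means were 33.1 ± 1.88 RPKM (SD, n = 2) for HES4, 4.08 ± 0.566 for HES1, 3.29 ± 0.0466 for NRARP, 2.82 ± 0.335 for HES6, 2.71 ± 0.0615 for HES7, 1.28 ± 0.124 for HEY1 and 1.20 ± 0.0589 for HEYL. HES6 and HES7 changed places between the 2 no dox libraries, as did HEY1 and HEYL, so neither pair was ordered beyond its spread. HES2 and HEY2 were the lowest in every library, both below 0.14 RPKM.

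**Figure D1:**
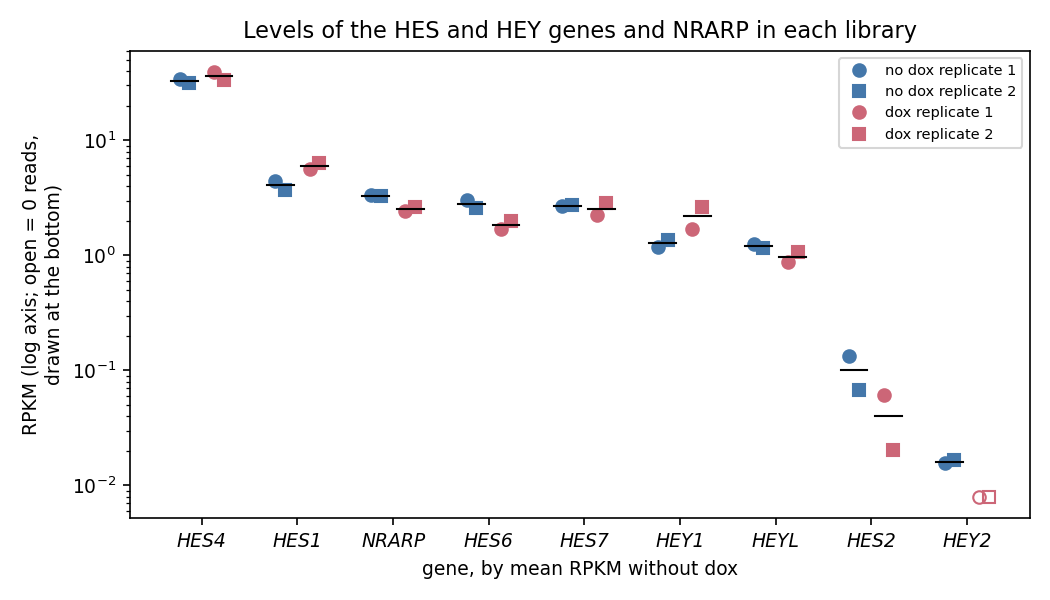
RPKM (log axis) of the 9 genes in each library, ordered by the mean without dox. Circles are replicate 1, squares replicate 2, blue no dox and red dox; black bars are group means, and open symbols at the bottom are libraries with 0 reads. HES4 lay between 31.8 and 39.3 RPKM, and the dox libraries lay above the no dox libraries for HES1 and HEY1 and below them for HES6, NRARP and HEYL.

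With dox the order below HES1 was less settled. NRARP (2.53 ± 0.170 RPKM), HES7 (2.55 ± 0.448) and HEY1 (2.18 ± 0.671) exchanged places between the 2 dox libraries. HES6 (1.85 ± 0.205) was below HES7 in both, whereas without dox those genes had no fixed order. HEY1 was above HEYL (0.974 ± 0.136) in both dox libraries. Set among all tested genes, HES4 had a higher RPKM than 84.3% to 86.2% of them in the 4 libraries, and HES1 than 47.3% to 58.5%. HEY1 stood above 25.4% and 27.8% of tested genes without dox and above 31.9% and 41.0% with dox, and HES6 moved the other way, from 44.1% and 40.4% to 31.9% and 35.5%.

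Dox was compared with no dox to ask whether these Notch targets change when MIB1 is disrupted. No member was called in limma, edgeR or DESeq2, a call being an adjusted p of at most 0.05 (adjusted over all genes tested) with a log2 fold change of 1 or more in either direction. In limma such calls were made for 0.0371% of the 16181 genes tested, 6 in number. The members did not share a direction: 3 had a log2 fold change above 0 (HES1, HES4 and HEY1) and 4 below it (HES6, HES7, HEYL and NRARP), with a median of -0.11. Over all genes tested the median was -0.0004, and the 5th and 95th percentiles were -0.54 and 0.54. HES1, HES6 and HEY1 had the 3 largest absolute log2 fold changes of the 7, each outside that range of percentiles. They were also the 3 members with an unadjusted p under 0.05, which 9.28% of all tested genes had.

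**Figure D2:**
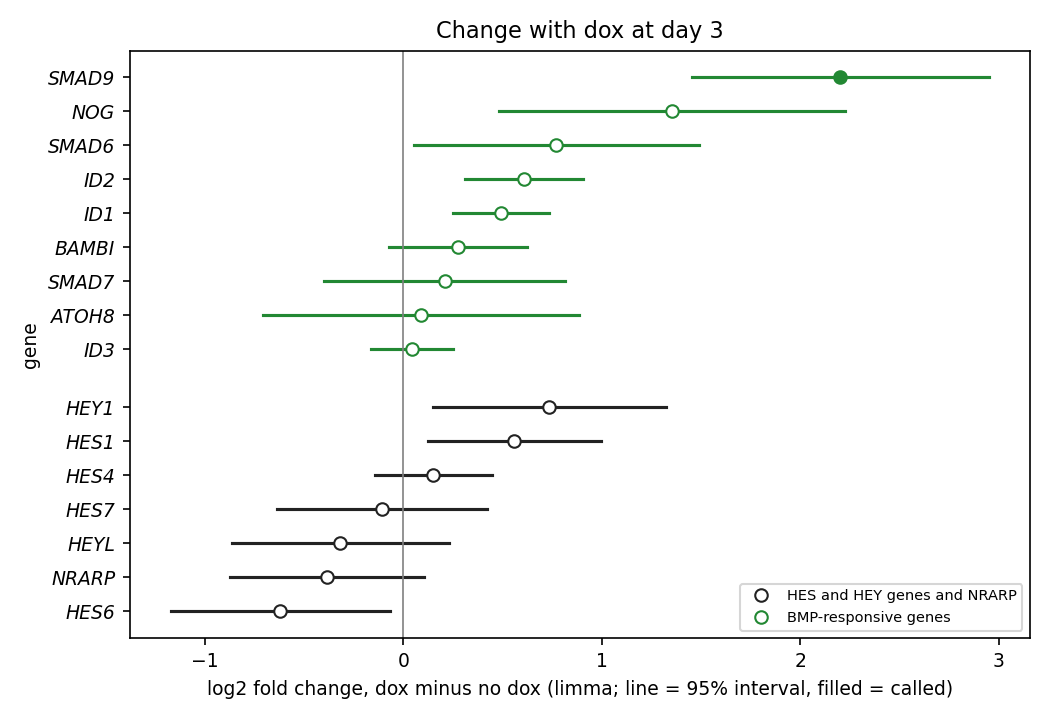
log2 fold change, dox minus no dox, of the 7 tested members (black) and of 9 BMP-responsive genes (green). Points are limma estimates, lines their 95% intervals, and filled points genes called; the intervals of HES1 and HEY1 lie above 0 and that of HES6 below 0, but SMAD9 is the one gene called.

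HES1, the repressor most used as a readout of Notch activity, was the member with the smallest unadjusted p in the limma fit, though HEY1 had a smaller one in edgeR (0.0104 against 0.0149) and DESeq2 (0.0218 against 0.0294). The gene occupies chromosome 3, positions 194136148 to 194138732 (plus strand, GRCh38 here and below). HES1 had 166 and 127 reads in no dox replicates 1 and 2 and 135 and 181 in dox replicates 1 and 2, or 4.48, 3.68, 5.61 and 6.33 RPKM. Both dox libraries were above both no dox libraries once scaled to depth. The log2 fold change was 0.56 ± 0.20 (SE, 95% interval 0.12 to 0.99), that is 1.47-fold higher, with an unadjusted p of 0.0156 and an adjusted p of 0.407 (limma). With every library thinned to the smallest total the log2 fold change was 0.58.

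HES4, a close relative of HES1 that mice lack, occupies chromosome 1, positions 998962 to 1000172 (minus strand). It had 841, 723, 623 and 626 reads in the same order of libraries, or 34.4, 31.8, 39.3 and 33.2 RPKM. Dox replicate 1 was the highest, while dox replicate 2 lay between the no dox replicates, so the groups overlapped in RPKM. In CPM, which scales reads by the library total alone, both dox libraries were higher. Its log2 fold change was 0.15 ± 0.14 (SE, 95% interval -0.14 to 0.45; limma, adjusted p = 0.781). HES4 shared the facing RBPJ cores with HES1, and its interval included 0 where that of HES1 did not. The difference between these genes was not tested.

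HES6, which unlike its relatives is known to oppose HES1 and to promote neuronal differentiation, had the lowest log2 fold change of the members. The gene occupies chromosome 2, positions 238238267 to 238240662 (minus strand). HES6 was read 127 and 100 times in no dox replicates 1 and 2, and 46 and 64 times in dox replicates 1 and 2, or 3.06, 2.59, 1.71 and 2.00 RPKM. Both dox libraries were below both no dox libraries, and the ratio of mean RPKM was 0.657. The log2 fold change was -0.62 ± 0.26 (SE, 95% interval -1.17 to -0.07), with an unadjusted p of 0.0302 and an adjusted p of 0.472 (limma). A lncRNA on the opposite strand, ENSG00000225057, spans HES6, and it had at most 1 read in any library.

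HES7, a repressor of the segmentation clock of the embryo, did not separate the groups. The gene occupies chromosome 17, positions 8120592 to 8124106 (minus strand). With 105, 101, 57 and 87 reads it reached 2.67, 2.76, 2.23 and 2.87 RPKM, so that dox replicate 1 was the lowest library and dox replicate 2 the highest. For HES7 the log2 fold change was -0.11 ± 0.25 (SE, 95% interval -0.64 to 0.42; limma, adjusted p = 0.932). It turned to 0.09 without dox replicate 1.

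HES2, a further repressor of the family, was close to the limit of detection. The gene occupies chromosome 1, positions 6412418 to 6424670 (minus strand). The counts were 17, 8, 5 and 2, with exact Poisson 95% intervals of 9.90 to 27.2, 3.45 to 15.8, 1.62 to 11.7 and 0.242 to 7.22, which cover counting error only. The intervals of the nearest no dox and dox libraries overlapped widely, whereas those of no dox replicate 1 and dox replicate 2 did not overlap. In RPKM the gene stood at 0.134, 0.0676, 0.0607 and 0.0204. Without the filter on low counts the log2 fold change had a 95% interval of -3.38 to 0.38 (limma, adjusted p = 0.697), and a difference was not detectable at this depth.

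HEY1, a repressor known from endothelial and cardiac development, had the highest log2 fold change of the members. The gene occupies chromosome 8, positions 79762371 to 79767857 (minus strand). HEY1 counts of 72, 77, 67 and 124 came to 1.19, 1.36, 1.71 and 2.65 RPKM in that order. Both dox libraries were above both no dox libraries after scaling, with dox replicate 2 far above dox replicate 1. Its 124 reads have an exact Poisson 95% interval of 103 to 148, and the 67 reads of dox replicate 1 one of 51.9 to 85.1, before scaling for depth. The log2 fold change was 0.74 ± 0.27 (SE, 95% interval 0.15 to 1.32), that is 1.67-fold higher, with an unadjusted p of 0.0177 and an adjusted p of 0.415 (limma). Its size rested on dox replicate 2: it was 0.39 without that library and 1.08 without dox replicate 1. With all libraries thinned to the smallest total it was 0.67.

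HEYL, found mainly in vascular smooth muscle, occupies chromosome 1, positions 39623435 to 39639643 (minus strand). Its 107, 93, 49 and 71 reads came to 1.24, 1.16, 0.878 and 1.07 RPKM. Both dox libraries were lower, dox replicate 2 by little. For HEYL the log2 fold change was -0.32 ± 0.25 (SE, 95% interval -0.86 to 0.23; limma, adjusted p = 0.748), and it ranged from -0.49 to -0.16 with dox replicate 2 or dox replicate 1 left out. A lncRNA on the opposite strand, ENSG00000225903, lies within HEYL and had at most 2 reads in any library.

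HEY2, a cardiac and vascular repressor on chromosome 6 (125747664 to 125761269, plus strand), was read once in each no dox library and not at all in the dox libraries. A count of 3 reads, taken as the upper limit for 0 reads (the two-sided Poisson interval used above would end at 3.69), would be worth 0.0718 and 0.0604 RPKM in dox replicates 1 and 2. All 4 libraries were thus at or below that floor, and no fold change is given. HEY2-AS1, an antisense gene that overlaps HEY2, had 3, 1, 1 and 3 reads.

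NRARP, whose protein binds the Notch intracellular domain and limits its activity, occupies chromosome 9, positions 137299631 to 137302271 (minus strand). Counts were 138, 126, 65 and 85 in that order of libraries, or 3.32, 3.25, 2.41 and 2.65 RPKM. Both dox libraries were below both no dox libraries, and the no dox replicates were close to each other. Its log2 fold change was -0.38 ± 0.23 (SE, 95% interval -0.87 to 0.10; limma, adjusted p = 0.644). An opposite-strand lncRNA, ENSG00000288234, overlaps the gene end and was not analysed here.

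In CPM, both dox libraries lay above both no dox libraries for HES1, HES4 and HEY1, an arrangement found in 18.7% of all tested genes. Both lay below for HES6, HEYL and NRARP, an arrangement found in 17.4% of all tested genes. HES4 lost its place among the first 3 in RPKM and after quantile normalization. An exact permutation test (two-sided) of 2 against 2 reaches no p below 0.333, so the p-values of single genes come from models fitted across all genes.

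**Figure D3:**
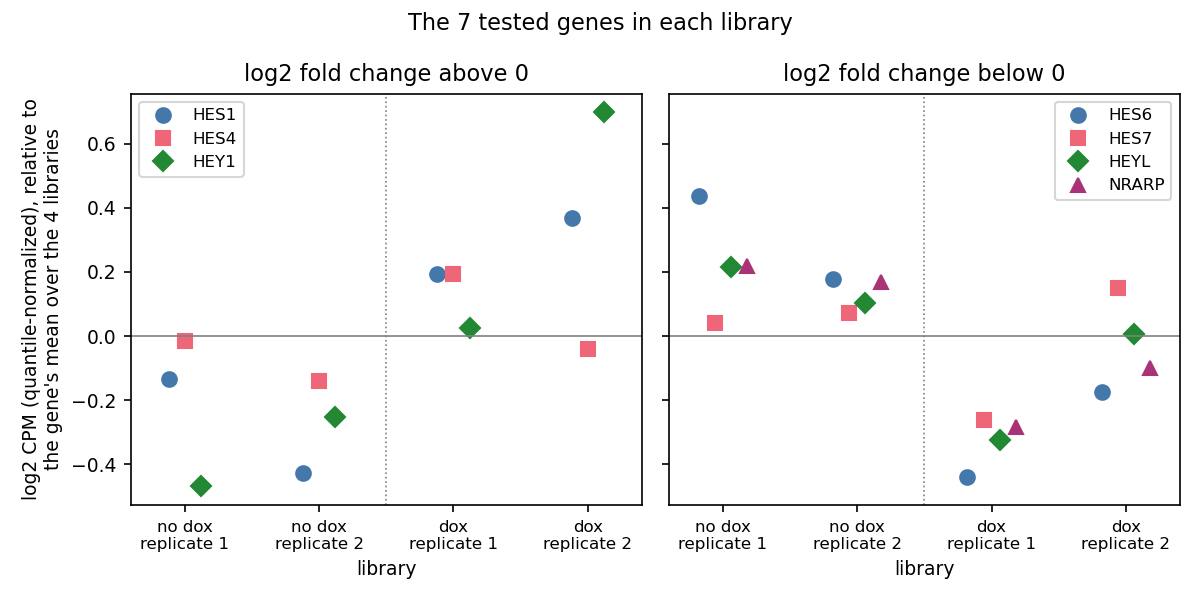
log2 CPM after quantile normalization of the 7 tested members in each library, relative to the gene's mean over the 4 libraries; left, the 3 genes with a log2 fold change above 0, and right, the 4 below 0. HEY1 reaches 0.70 in dox replicate 2 and 0.02 in dox replicate 1, and HES6 runs from 0.44 in no dox replicate 1 to -0.44 in dox replicate 1.

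The 2 dox libraries differed from each other in one manner for most members. Relative to each gene's own mean, 6 of the 7 tested members were higher in dox replicate 2 than in dox replicate 1, HES4 being the exception. The share of all tested genes with that order was not computed, so the count cannot be called particular to these members. The gap between the dox libraries was wider than that between the group means for HES7 (-0.26 to 0.15) and HES4 (0.20 to -0.04). In HEYL (-0.32 to 0.01) it was wider by little. For HEY1 it ran from 0.02 to 0.70, and for HES1 from 0.19 to 0.37. HES6, HEYL and NRARP were nearer to the no dox libraries in dox replicate 2, while HES7 was above them there, and HES1 and HEY1 were farther from them.

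Ratios between members within a library do not depend on how libraries are scaled to each other. The pairs were chosen after the values had been seen, so the ratios are a description. HES1 over HES6 in RPKM was 1.46 and 1.42 without dox and 3.28 and 3.17 with dox, the replicates lying close together. HES1 over NRARP was 1.35 and 1.13 without dox and 2.33 and 2.39 with dox. HEY1 over HEYL went from 0.956 and 1.18 to 1.94 and 2.48. HES4 over HES1 was 7.69 and 8.64 without dox and 7.002 and 5.248 with dox, where it averaged 6.12. Its dox replicate 1 thus lay nearer to no dox replicate 1 than to dox replicate 2. The groups did not overlap in any of these 4 ratios. Except for HES4 over HES1, this was fixed by the choice of pairs. In each of those, the first gene was higher and the second lower in RPKM in both dox libraries. How often other pairs of genes show no overlap was not computed.

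**Figure D4:**
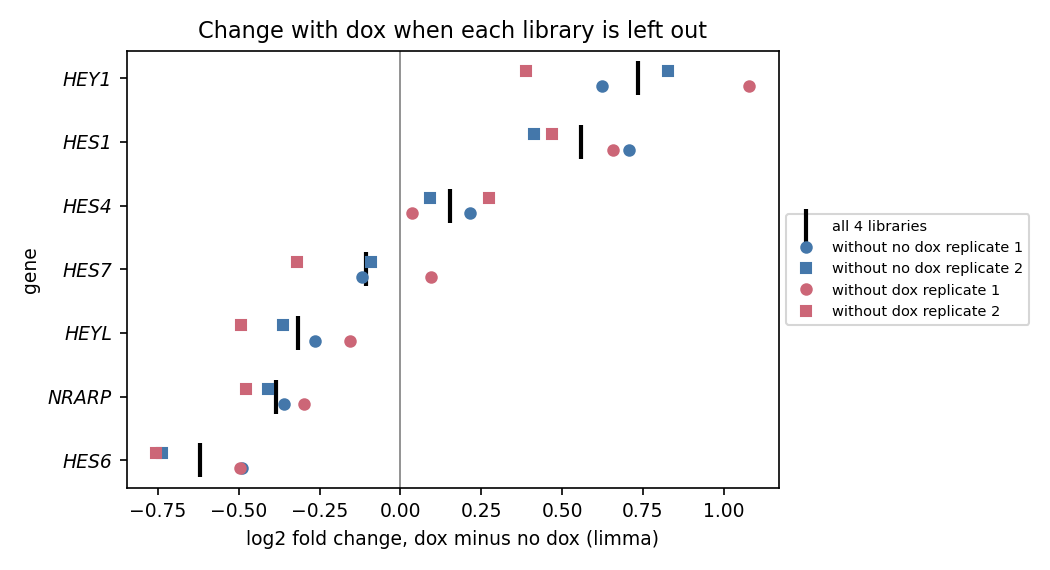
log2 fold change, dox minus no dox, of the 7 tested members with all 4 libraries (black bars) and with each library left out (blue, a no dox library left out; red, a dox library left out). HEY1 spreads from 0.39 to 1.08, and HES7 crosses 0 when dox replicate 1 is left out.

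The genes with the most similar profile were sought among 59 listed genes averaging 50 or more reads, by the root mean square difference of the centred log2 CPM over the 4 libraries. HEYL and NRARP were each other's nearest, at 0.0652. HES6 was nearest to NRARP (0.140), HEYL (0.160) and the ligand gene JAG2 (0.177). HES1 was nearest to MIB2 (0.133), a ligase related to MIB1, CIR1 (0.144), a corepressor of RBPJ, and ID1 (0.170), a BMP target. HEY1 had larger differences from its nearest genes, which were CIR1 (0.232), the ligand gene JAG1 (0.233) and ID1 (0.257). HES4 was nearest to DTX3 (0.0802), PSENEN (0.0953) and NUMBL (0.0976), and HES7 to FBXW7 (0.0491), NEURL1 (0.0516) and TLE2 (0.0777), which are genes with small differences between libraries. After each other, HEYL was nearest to DTX2 (0.0880) and NEURL1 (0.0918), and NRARP to DTX2 (0.0804) and EP300 (0.101). With 4 libraries such likeness is common. Among 12344 genes of any function, 79 were as near to HEYL as NRARP and 169 as near to HES1 as MIB2. As near to HEY1 as CIR1 were 183, and 1103 were as near to HES4 as DTX3. By that count HEY1 and CIR1 were about as alike as HES1 and MIB2.

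The rest of the pathway was read from fixed lists, which without MIB1 held 69 genes. Of these, 51 were tested, 26 with a log2 fold change above 0 and 25 below, with a median of 0.02. None was called in limma, edgeR or DESeq2, and 5 had an unadjusted p under 0.05 in limma. Of all tested genes, 0.0371% were called and 9.28% had such an unadjusted p in limma. All 4 receptors were tested, from -0.28 for NOTCH1 to 0.13 for NOTCH2. Of the 5 ligands, 3 were tested, with JAG2 the lowest at -0.54 ± 0.19 (SE; limma, adjusted p = 0.403) and JAG1 the highest at 0.28. JAG2, a membrane ligand of the Serrate type, was read 274 and 228 times against 124 and 126 times with dox, from smaller totals. Scaled, it stood at 2.00 and 1.79 RPKM without dox and 1.39 and 1.19 with dox. Its groups did not overlap, and in CPM 17.4% of all tested genes likewise had both dox libraries lower. Among the ligases beside MIB1, MIB2 stood at 0.29 and was the highest.

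Among the steps after ligand binding, the 9 genes of receptor proteases and γ-secretase ran from -0.23 (PSEN2) to 0.16 (FURIN), with 2 above 0 and 7 below. The Notch glycosyltransferases ran from -0.19 (POGLUT1) to 0.13 (RFNG) in 3 tested genes of 5. The RBPJ activator complex ran from -0.46 (MAML1) to 1.16 (MAML2) in 6 genes. MAML2, a Mastermind-like coactivator, rested on 15, 33, 31 and 45 reads and had an adjusted p of 0.398 (limma). Of the 10 corepressors, 7 were above 0 and 3 below, from -0.12 (HDAC1) to 0.39 (KDM5A, limma adjusted p = 0.404), and of 7 tested antagonists and turnover factors 3 were above and 4 below, from -0.39 (DTX4) to 0.13 (DTX3).

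Of 10 other Notch target genes, 7 were tested, 6 with a log2 fold change above 0 and 1 below, with a median of 0.13. The one below was TGM2, a transglutaminase, at -0.57 ± 0.15 (SE; limma, adjusted p = 0.257), and the highest was SOX9, a transcription factor of progenitor cells, at 0.51 (limma, adjusted p = 0.712). Of 5 further genes of the basic helix-loop-helix Orange family, BHLHE40 alone was tested, at 0.14, while HES5 had 1, 1, 0 and 0 reads.

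HEY1 was set against 10 BMP-responsive genes measured in the same libraries. All 9 that were tested had a log2 fold change above 0, with a median of 0.49, and 1 was called. Of all 16181 genes tested, 8080 had a log2 fold change above 0, and 0.0371% were called in either direction. The gene called from this list was SMAD9, a receptor-regulated SMAD, at 2.20 (limma, adjusted p = 0.0265). The call was lost when libraries were thinned to the smallest total. With any library left out, without the filter or on RPKM no gene at all was called, MIB1 included. The next were NOG, a secreted BMP antagonist, at 1.36 (adjusted p = 0.311), SMAD6, an inhibitory SMAD, at 0.77 (0.503), and the helix-loop-helix inhibitors ID2 at 0.61 (0.167) and ID1 at 0.49 (0.167). BAMBI, a decoy receptor, stood at 0.27 (0.644), SMAD7 at 0.21 (0.875), ATOH8 at 0.09 (0.965) and ID3 at 0.04 (0.929). ID4 had 6, 8, 6 and 6 reads and was not tested. HEY1, at 0.74, lay between ID2 and SMAD6, above the median of this list and above every other tested HES, HEY or NRARP gene. HES1, at 0.56, was also above that median, between ID1 and ID2. HEY1 was below HES1 without dox replicate 2 (0.39 against 0.47) and without no dox replicate 1 (0.62 against 0.71). It was above HES1 without dox replicate 1 (1.08 against 0.66) and without no dox replicate 2 (0.83 against 0.41). The values of HEY1 and of the list come from shared libraries, and no test of the list was made. In shape the genes differed, since relative to its mean ID1 was at 0.23 and 0.26 in dox replicates 1 and 2, where HEY1 was at 0.02 and 0.70.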

How the data were processed

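After removal of ribosomal reads, the authors aligned to GRCh38 by GSNAP and used HTSeqGenie to count reads over exons. The deposited counts are whole numbers per Ensembl gene, not normalized. The authors' RPKM carry a scaling per sample beyond the totals: relative to no dox replicate 1 it was 0.932, 0.649 and 0.771, against 0.869, 0.653 and 0.699 for the totals. The methods name RefSeq gene models although the identifiers are Ensembl's, and use of strand in counting is not stated, so genes with an antisense partner are uncertain.

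Members and gene lists were chosen with earlier results of these data known. Symbols and positions are from GENCODE 44 (57532 of 58302 identifiers matched), and upstream sequences from RefSeq. Genes kept by filterByExpr were scaled by library size, quantile-normalized, weighted with voom and tested in limma 3.58.1 (R 4.3.3), with Benjamini-Hochberg adjustment over all genes tested. Named were the members, MIB1, of each list the genes called or else the highest and lowest, all BMP-responsive genes, and the 3 nearest profiles. Further genes (MIB2, ID4, HES5, and markers) were named after their values were seen. Alternatives were edgeR 4.0.16, DESeq2 1.42.0, TMM or library size alone, other filters, log2 RPKM, a replicate block, thinning, other thresholds and leaving out each library. The fits were tested on simulated data with changes larger than those of the tested members. Detection of changes as small as the members' was not tested. Results of 2 of the lists are not reported here.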

Additional observations from a re-analysis of the deposited data

How the results depend on the processing

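No member was called under any alternative. Of 98 alternative values of the members' log2 fold changes, 97 kept their direction and stayed uncalled, and 1 reversed: HES7 was 0.0943 without dox replicate 1, in a range of -0.32 to 0.0943 over the libraries left out. The other members ranged over left-out libraries from 0.41 to 0.71 (HES1), 0.04 to 0.27 (HES4), -0.76 to -0.49 (HES6), 0.39 to 1.08 (HEY1), -0.49 to -0.16 (HEYL) and -0.48 to -0.30 (NRARP). Leaving out a library gives a lone sample that is assumed to vary like the other group, with 1 residual degree of freedom.

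Of all genes, 6 were called. The count was 0 without a filter (2092 genes with an unadjusted p under 0.05) and 0 on log2(RPKM + 0.1) and log2(RPKM + 1) (1442 and 1438), 11 with no limit on fold change, and 0 (833 to 1042 at an unadjusted p under 0.05) whichever of the 4 libraries was left out. For the BMP-responsive genes the count of 1 fell to 0 without a filter, on both RPKM scales, after thinning, and with any library left out (range 0 to 0). Apart from the smaller samples of the left-out fits, the cause was not tested.

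The replicate numbers are shared between the groups, but nothing says that they mark a shared culture or day. Deviations of same-numbered libraries had a correlation of 0.134 across 16181 genes, with 2 pairs only. The fit with a replicate block also leaves 1 residual degree of freedom, so its p-values lean on the spread shared across all genes. With the replicate block 78 genes were called, 6 of them those called without it, and 2 BMP-responsive genes, SMAD9 and NOG (1.22, limma, adjusted p = 0.0158). In that fit 7.13% of genes had an adjusted p of at most 0.05, among them HEY1 (0.75 ± 0.24 SE, limma, adjusted p = 0.0398), TGM2 (-0.57, adjusted p = 0.00153), JAG2 (-0.53, adjusted p = 0.0495), CIR1 (0.39, adjusted p = 0.00338), KDM5A (0.38, adjusted p = 0.0232), ID1 (0.49, adjusted p = 2.47e-07) and ID2 (0.61, adjusted p = 3.63e-05). HES1 (0.56) had 0.0531 and HES6 0.129. None of the members reached a log2 fold change of 1 with the block. HEY1 passed 1 without dox replicate 1, with an adjusted p of 0.721 (limma).

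Counts of 46 to 181 reads for the tested members other than HES4 limit the precision of their fold changes.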
